A study of Homo sapiens with 6 samples.

Results

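The SLC25 genes encode the mitochondrial carriers, the largest family of transport proteins of the inner mitochondrial membrane. A carrier is built from repeats of a pair of membrane helices around a central cavity, which opens in turn to the cytosolic and the matrix side and so exchanges a nucleotide, a carboxylate, an amino acid, a cofactor or a metal between these compartments. In epithelial and tumour cells these exchanges link glycolysis, the respiratory chain, fatty acid synthesis and redox balance. The members described here are the rows of the deposited table whose gene name is SLC25A followed only by a number: 49 of 51537 rows, with 48 names. SLC25A10 has 2 rows, and the second (ENSG00000262660), which GENCODE 29 annotates as a readthrough gene that also contains exons of MRPL12, was listed at 0 in all 6 libraries.

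The study compared poly(A) RNA of crizotinib-resistant H3122 cells with that of control H3122 cells, in 3 libraries each. H3122 is a human lung adenocarcinoma line known for an EML4-ALK fusion, and crizotinib inhibits the ALK and MET kinases. Resistant cells had been selected by raising crizotinib stepwise to 10 µM, starting at 0.1 µM. The control cells are the same line without that selection. The labels do not say whether the resistant cells are a clone, whether drug was present at harvest, or whether each replicate was grown separately. The p-values therefore cover the library-to-library spread alone, and that spread may be technical.

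The values are TPM (reads divided by gene length and scaled to a sum of 1000000 in each library), so they are levels relative to the other RNA of the library. In these bulk samples, less RNA of a gene per cell and fewer cells that express it cannot be told apart. TPM keeps no depth. Multiplying by GENCODE 29 exon length gave an estimated 30857259 to 32461991 reads per resistant library and 29856927 to 36695580 per control library. Mitochondrially encoded transcripts took 19.7% to 21.8% of the TPM in resistant and 19.4% to 23.7% in control libraries. Epithelial markers summed to 17791 to 19088 TPM in resistant and 17098 to 17652 TPM in control libraries. Of those 8 markers, the lung lineage factor NKX2-1 was under 1 TPM in all 6 libraries. All 6 fibroblast markers were under 1 TPM as well (DCN and LUM at 0). So were 4 of 5 leukocyte markers, whose sum was 0.792 to 1.34 TPM in resistant and 1.6 to 1.89 TPM in control libraries, with LYZ at 0. Endothelial markers, with KDR at 0, summed to 5.79 to 7.22 TPM in resistant and 8.04 to 8.94 TPM in control libraries, and 2 of 4 were under 1 TPM in all; their part in the results was not tested.

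The most abundant members are the ADP/ATP carriers, which hand newly made ATP to the cytosol. They are close relatives, and how far their sequences differ decides how well short reads can be assigned to each. The coding sequences of SLC25A5 and SLC25A6 were both 897 bases long and identical at 78.8% of positions, with no identical run over 29 bases. SLC25A4 was 77.3% identical to SLC25A5, and the testis-type SLC25A31 67.1% over 891 aligned bases. The 60 coding bases that contain the codons of the arginine- and methionine-rich signature of ADP/ATP carriers are given below, 5′ to 3′ from GENCODE 29 transcripts, with capitals where a base differs from SLC25A5.
SLC25A5: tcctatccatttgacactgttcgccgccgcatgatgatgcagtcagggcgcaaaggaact
SLC25A6: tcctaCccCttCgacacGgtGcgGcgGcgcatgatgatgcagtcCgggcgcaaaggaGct
SLC25A4: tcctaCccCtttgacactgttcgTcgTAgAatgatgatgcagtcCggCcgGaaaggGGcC
SLC25A31: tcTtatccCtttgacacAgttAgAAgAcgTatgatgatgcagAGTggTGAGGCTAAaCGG
SLC25A6 differed from SLC25A5 at 9 of these 60 bases, SLC25A4 at 12 and SLC25A31 at 23. None of the stretches of 75 bases in the transcripts of SLC25A4, SLC25A5, SLC25A6 and SLC25A31 occurred in a transcript of another gene of GENCODE 29. That search left out the annotated Y chromosome copies of pseudoautosomal genes. For SLC25A6, which lies in the pseudoautosomal region, it therefore cannot show whether reads also match the Y chromosome. Pseudogenes of SLC25A5 and SLC25A6 are listed in the table, and how the authors assigned reads that match several places is not known.

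SLC25 carriers changed in both directions by moderate amounts. At the filter of at least 1 TPM in at least 3 libraries, 39 of the 49 rows were tested with limma on log2(TPM + 1), within a fit to all 16077 genes that passed. In resistant cells 9 carriers were higher and 14 lower at an adjusted p below 0.05, and 16 did not pass. The 23.1% called higher stood against 24% of all genes tested, and the 35.9% called lower against 24.7%. The median log2 fold change was -0.12 over the tested carriers and -0.00 over all genes tested. A single carrier, SLC25A40, was called with at least a 2-fold change on this scale, as were 5.98% of all genes tested. All resistant libraries lay above all control libraries in 12 tested carriers (30.8%, against 29.2% of all genes tested) and below them in 19 (48.7%, against 28.7%). Of the 23 calls, 16 held under every other processing setting listed with the methods and in every fit that left out a library (5 higher, 11 lower). The 7 that did not are therefore less firm, among them SLC25A15, SLC25A27, SLC25A36, SLC25A37, SLC25A38 and SLC25A51. Group values below are means ± SD over the 3 libraries of a group. Log2 fold changes are resistant minus control ± SE, with the adjusted p from limma.

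**Figure D1:**
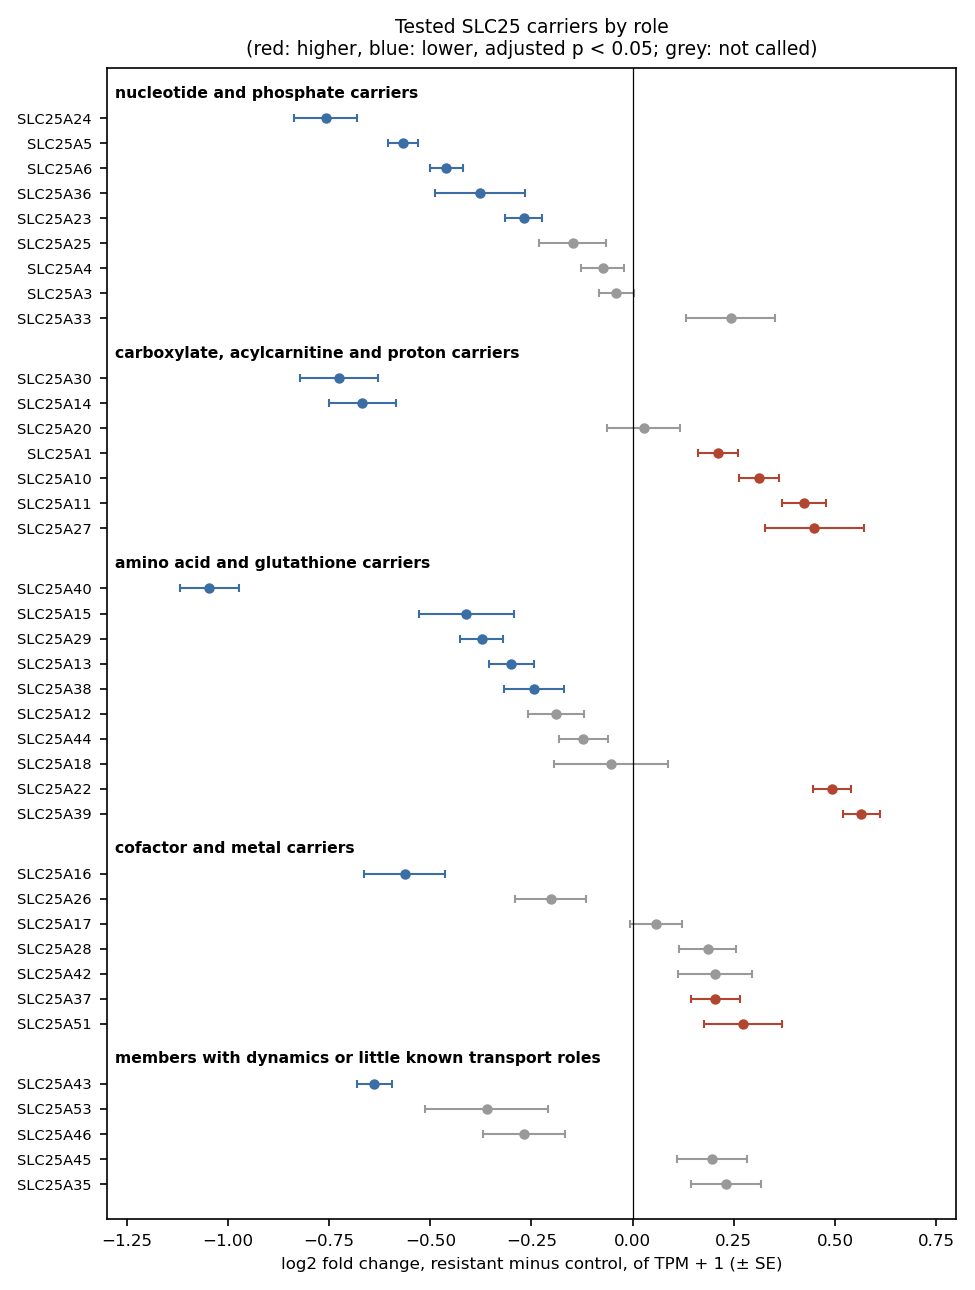
Log2 fold change of TPM + 1 (resistant minus control, horizontal axis, ± SE) for 38 of the 39 tested SLC25 carriers, grouped by role; red and blue mark carriers called higher and lower, grey those not called. Nucleotide carriers lie mostly left of 0, while SLC25A1, SLC25A10 and SLC25A11 lie to the right, and SLC25A39 and SLC25A40 lie at opposite ends of their group.

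The family's transcripts were fewer in sum in resistant cells, and this lay in the ADP/ATP carriers. All 48 named members together summed to 3408, 3604 and 3456 TPM in resistant libraries, against 4186, 4372 and 4355 TPM in control libraries. The 4 ADP/ATP carriers summed to 2084 ± 65.2 TPM in resistant and 2965 ± 72.8 TPM in control cells, which is 59.6% to 59.8% of the family in resistant and 68.7% to 69.1% in control libraries. Without SLC25A3, SLC25A4, SLC25A5 and SLC25A6, the other 44 members summed to 1101 ± 27.2 TPM in resistant and 1028 ± 21.8 TPM in control cells. No test was made of these sums.

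**Figure D2:**
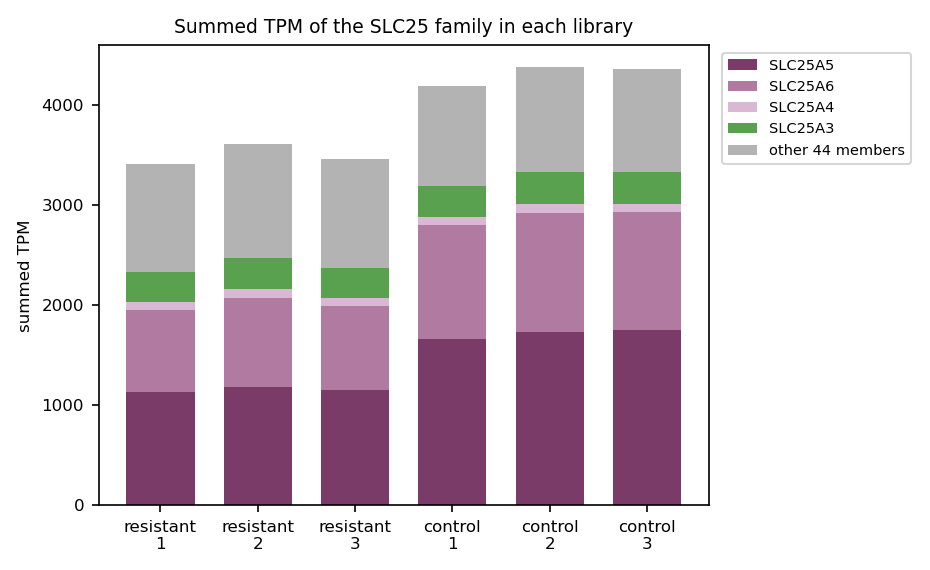
Summed TPM of the SLC25 family (vertical axis) in each of the 6 libraries, split into SLC25A5, SLC25A6, SLC25A4, SLC25A3 (phosphate carrier) and the other 44 members. The resistant bars reach 3408 to 3604 TPM and the control bars 4186 to 4372 TPM, and the SLC25A5 and SLC25A6 segments are shorter in resistant libraries.

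Among nucleotide and phosphate carriers 5 of 9 tested members fell and 0 rose (median log2 fold change -0.27). That is 55.6% and 0%, against 24.7% called lower and 24% called higher among all genes tested. In this and the other short lists a gene more or less shifts the share widely, and no list was tested as a set. SLC25A5 (ENSG00000005022, chromosome X, 119468400 to 119471319 on GRCh38), the ADP/ATP carrier of dividing cells, had 1128, 1183 and 1147 TPM in resistant libraries, against 1657, 1724 and 1746 TPM in control libraries. The groups did not overlap, and SLC25A5 was lower by 0.57 ± 0.04 on the log2 scale (log2 fold change -0.57, adjusted p = 2.95e-05). An annotated antisense gene, SLC25A5-AS1, covers 15.1% of its exon bases. SLC25A6 (ENSG00000169100, chromosome X, 1386152 to 1392724), the ubiquitous form, had 823, 886 and 838 TPM in resistant libraries, against 1140, 1190 and 1177 TPM in control libraries. It fell too (log2 fold change -0.46 ± 0.04, adjusted p = 9.94e-05). SLC25A4, the form of heart and muscle, had 79.2, 87.9 and 80.4 TPM in resistant libraries, against 83.8, 89.4 and 87.3 TPM in control libraries. These ranges overlapped and the difference did not pass (log2 fold change -0.07, adjusted p = 0.287). SLC25A31 was listed at 0 in all resistant libraries and reached 0.193 TPM in a control library, an estimated 3.01 reads at most.

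Within the ADP/ATP carriers the mixture shifted little. SLC25A5 made up 55.3% ± 0.409 of their TPM in resistant and 57.6% ± 0.323 in control cells, and SLC25A6 40.7% ± 0.306 and 39.4% ± 0.292 in resistant and control cells. SLC25A4 made up 3.96% ± 0.103 in resistant and 2.93% ± 0.0428 in control cells. None of these 3 shares overlapped between groups. Each reached p = 0.1 in a two-sided exact permutation test, the smallest value that 3 against 3 libraries allow (adjusted p = 0.175 over 14 shares).

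SLC25A3, which brings phosphate and copper into the matrix, was the third most abundant carrier and did not pass the test. It had 296, 315 and 300 TPM in resistant libraries, against 301, 322 and 312 TPM in control libraries, so the groups overlapped (log2 fold change -0.04, adjusted p = 0.482). The ATP-Mg/phosphate carriers, which set the adenine nucleotide pool of the matrix, leaned lower. SLC25A24 (ENSG00000085491, chromosome 1, 108134036 to 108200849) had 13.3, 11.4 and 12.3 TPM in resistant libraries, against 20.2, 23.1 and 21.1 TPM in control libraries (log2 fold change -0.76 ± 0.08, adjusted p = 2.06e-04). All resistant libraries lay below all control libraries. SLC25A23 had 42.3, 44.1 and 44.3 TPM in resistant libraries, against 51.0, 52.8 and 54.4 TPM in control libraries, a smaller difference without overlap (log2 fold change -0.27, adjusted p = 0.0020). SLC25A25 was at 9.44 ± 0.126 TPM in resistant and 10.6 ± 1.07 TPM in control cells and was not called (adjusted p = 0.175), and SLC25A41 reached at most 0.134 TPM.

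SLC25A24 supplied 18.8% ± 1.45 of the TPM of these 4 carriers in resistant and 25.3% ± 1.27 in control cells, and SLC25A23 66.6% ± 1.61 in resistant and 62.1% ± 1.03 in control cells (exact permutation p = 0.1 each, adjusted p = 0.175). Of the carriers of pyrimidine nucleotides, which feed mitochondrial RNA and DNA synthesis, SLC25A36 had 18.9, 14.01 and 14.9 TPM in resistant libraries, against 19.3, 22.2 and 21.0 TPM in control libraries. It fell (log2 fold change -0.38 ± 0.11, adjusted p = 0.0251), with 1 resistant library close to the lowest control library. The call was lost in 4 of 6 fits that left out a library (resistant replicate 2, resistant replicate 3, control replicate 2 or control replicate 3), at adjusted p = 0.0663 to 0.0777, and with a replicate block (adjusted p = 0.0695). Its relative SLC25A33 was at 20.8 ± 2.52 TPM in resistant and 17.4 ± 1.92 TPM in control cells and did not pass (adjusted p = 0.105). It passed without resistant replicate 1 (adjusted p = 0.0256), and 14.4% of its stretches of 75 bases also occur in other annotated genes.

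**Figure D3:**
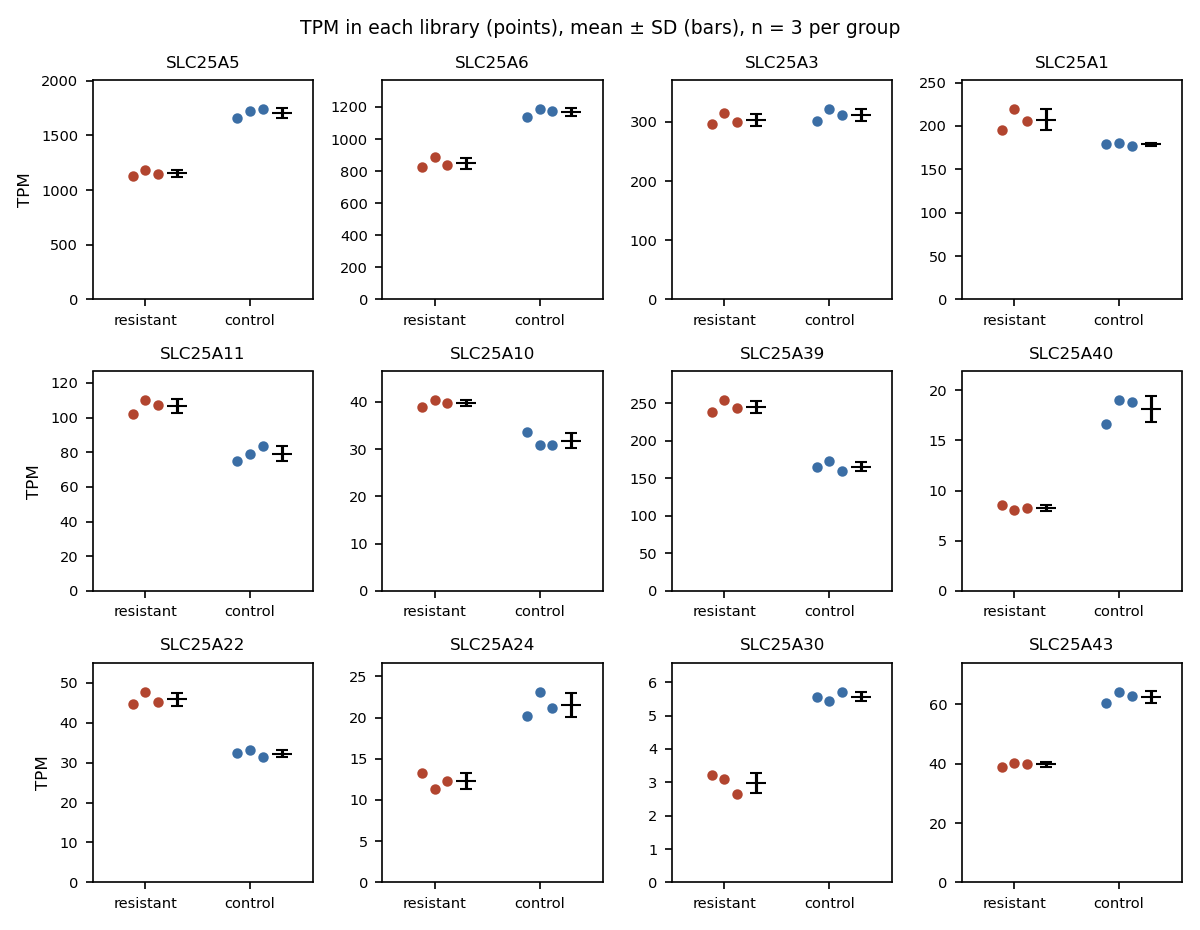
TPM (vertical axis, from 0) of 12 SLC25 carriers in each library, resistant left and control right, with mean ± SD (n = 3) beside the points. SLC25A5, SLC25A6, SLC25A24, SLC25A30, SLC25A40 and SLC25A43 are lower in all 3 resistant libraries, SLC25A1, SLC25A10, SLC25A11, SLC25A22 and SLC25A39 are higher, and SLC25A3 overlaps.

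The citrate, dicarboxylate and oxoglutarate carriers rose, while those named as brain and kidney uncoupling proteins went both ways. Of 7 tested carboxylate, acylcarnitine and proton carriers 4 rose and 2 fell (57.1% and 28.6%, against 24% and 24.7% of all genes tested). Their median log2 fold change was 0.21. SLC25A11 (ENSG00000108528, chromosome 17, 4937130 to 4940251), which exchanges oxoglutarate for malate in the malate-aspartate shuttle, had 102, 110 and 107 TPM in resistant libraries, against 75.01, 78.9 and 83.7 TPM in control libraries (log2 fold change 0.42 ± 0.05, adjusted p = 5.46e-04). SLC25A10, which exchanges malate or succinate for phosphate, had 38.99, 40.4 and 39.8 TPM in resistant libraries, against 33.6, 30.9 and 30.9 TPM in control libraries (log2 fold change 0.31 ± 0.05, adjusted p = 0.00171). The readthrough gene that shares its name covers 46.6% of its exon bases, so reads there may have been left out or split. SLC25A1, which exports citrate for fatty acid and sterol synthesis, had 196, 220 and 206 TPM in resistant libraries, against 179, 180 and 176 TPM in control libraries (log2 fold change 0.21 ± 0.05, adjusted p = 0.00974). In all 3 carriers every resistant library lay above every control library. SLC25A1 was the most even of the carriers across control libraries, with a coefficient of variation of 1.13%, against 5.87% across resistant libraries.

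SLC25A20, which takes acylcarnitines into the matrix for fatty acid oxidation, had 18.02, 17.1 and 15.4 TPM in resistant libraries, against 14.9, 16.4 and 18.3 TPM in control libraries. The groups overlapped fully and the difference did not pass (log2 fold change 0.03, adjusted p = 0.822). SLC25A30, also called kidney mitochondrial carrier, had 3.21, 3.10 and 2.64 TPM in resistant libraries, against 5.55, 5.44 and 5.72 TPM in control libraries (log2 fold change -0.72 ± 0.10, adjusted p = 6.88e-04). SLC25A14 (UCP5) had 13.9, 11.4 and 11.7 TPM in resistant libraries, against 19.6, 21.1 and 19.7 TPM in control libraries (log2 fold change -0.67 ± 0.08, adjusted p = 4.83e-04). Both fell without overlap between groups. SLC25A27 (UCP4) was at 4.44 ± 0.716 TPM in resistant and 2.97 ± 0.210 TPM in control cells and rose (log2 fold change 0.45 ± 0.12, adjusted p = 0.0183). That call was lost without control replicate 3 (adjusted p = 0.0627). SLC25A21, the carrier of oxoadipate, stayed under 1 TPM in all 6 libraries and was not tested.

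On the log2(TPM + 1) scale the largest changes in each direction were in a pair of related carriers, SLC25A40 and SLC25A39, which are known to bring glutathione into mitochondria. SLC25A40 (ENSG00000075303, chromosome 7, 87833568 to 87876357) had 8.56, 8.02 and 8.23 TPM in resistant libraries, against 16.6, 19.0 and 18.8 TPM in control libraries. It fell to 0.455 of the control mean (log2 fold change -1.05 ± 0.07, adjusted p = 3.44e-05). SLC25A39 (ENSG00000013306, chromosome 17, 44319625 to 44324870) had 239, 254 and 244 TPM in resistant libraries, against 165, 173 and 160 TPM in control libraries. It rose to 1.48 times the control mean (log2 fold change 0.57 ± 0.05, adjusted p = 6.70e-05). The ratio of means was slightly higher, at 1.497, for the less abundant SLC25A27. Since SLC25A39 was the more abundant member, the pair summed to 254 ± 7.62 TPM in resistant and 184 ± 6.87 TPM in control cells. SLC25A40 made up 3.26% ± 0.2003 of the pair in resistant and 9.88% ± 0.694 in control cells (exact permutation p = 0.1, adjusted p = 0.175). The 2 coding sequences were identical at 61.1% of aligned bases, with no identical run over 13 bases.

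The promoters of this pair are shown because the genes moved in opposite directions. They run from 250 bases before to 50 after the annotated start, 5′ to 3′ on the gene's minus strand, from RefSeq on GRCh38.p14 (SLC25A39 at chr17:44324774-44325073, SLC25A40 at chr7:87876311-87876610).
SLC25A39: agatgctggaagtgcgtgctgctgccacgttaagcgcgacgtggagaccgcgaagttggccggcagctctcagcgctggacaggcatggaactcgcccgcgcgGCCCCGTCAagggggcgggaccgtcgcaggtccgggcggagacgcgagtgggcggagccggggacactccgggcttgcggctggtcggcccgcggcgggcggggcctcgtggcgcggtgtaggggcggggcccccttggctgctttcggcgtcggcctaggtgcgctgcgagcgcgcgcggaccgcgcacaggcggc
SLC25A40: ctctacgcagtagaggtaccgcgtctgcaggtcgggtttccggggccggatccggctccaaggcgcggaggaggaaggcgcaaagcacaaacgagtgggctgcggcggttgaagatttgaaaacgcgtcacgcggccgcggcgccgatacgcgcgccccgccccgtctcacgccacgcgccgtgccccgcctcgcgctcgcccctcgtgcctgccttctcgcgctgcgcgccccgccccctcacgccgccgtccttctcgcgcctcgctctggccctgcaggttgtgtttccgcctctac
Capitals mark the only match to any of 6 motifs searched on both strands, which is TGACNNNGC, the core of the antioxidant response element, here on the reverse strand. SLC25A40 held none of the 6 in this window. Of 48 names 40 matched the RefSeq table, with 51 promoters in all. TGACNNNGC occurred in 17.6% of the 51 and in 13.3% of all 35116 promoters of this length. CCAAT occurred in 45.1% and 34.6%, CACGTG (E-box) in 17.6% and 7.26%, the NRF1 motif in 9.8% and 5.78%, TGACGTCA in 5.88% and 1.85%, and AAGGTCA in 1.96% and 3.92% of carrier promoters and of all promoters. TGACNNNGC and the reverse strand of AAGGTCA can share bases, several carriers have more than 1 promoter in the table, and the median GC content was 66.0% in carrier promoters and 58.7% in all.

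Among amino acid and glutathione carriers, the pair above included, 2 of 10 tested members rose and 5 fell (median log2 fold change -0.22). That is 20% and 50%, against 24% and 24.7% of all genes tested. SLC25A22 (ENSG00000177542, chromosome 11, 790475 to 798333), which imports glutamate, had 44.7, 47.8 and 45.2 TPM in resistant libraries, against 32.3, 33.1 and 31.4 TPM in control libraries. It rose without overlap (log2 fold change 0.49 ± 0.05, adjusted p = 1.44e-04). SLC25A18, the other glutamate carrier, was at 1.20 ± 0.0497 TPM in resistant and 1.28 ± 0.150 TPM in control cells and did not pass (adjusted p = 0.775). Of the aspartate/glutamate carriers of the malate-aspartate shuttle, SLC25A13 (citrin) had 28.6, 31.5 and 28.1 TPM in resistant libraries, against 36.1, 35.98 and 37.1 TPM in control libraries (log2 fold change -0.30 ± 0.06, adjusted p = 0.00327). SLC25A12 (aralar) was at 17.1 ± 0.674 TPM in resistant and 19.7 ± 1.48 TPM in control cells. It missed the threshold (log2 fold change -0.19, adjusted p = 0.0551) and passed without control replicate 1 (adjusted p = 0.0169). It also passed with a filter at 5 TPM, with median-ratio scaling and when rescaled without mitochondrially encoded genes (limma adjusted p = 0.0453, 0.00961 and 0.0269). Citrin made up 63.2% ± 1.88 of the pair's TPM in resistant and 65.0% ± 1.73 in control cells (exact permutation p = 0.3).

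SLC25A29, a carrier of basic amino acids, had 18.3, 17.98 and 17.98 TPM in resistant libraries, against 22.5, 24.4 and 24.2 TPM in control libraries (log2 fold change -0.37 ± 0.05, adjusted p = 9.64e-04). SLC25A15, which exchanges ornithine for citrulline in the urea cycle of liver, had 12.4, 10.6 and 12.8 TPM in resistant libraries, against 13.7, 16.7 and 18.5 TPM in control libraries. The ranges were close, and the call (log2 fold change -0.41 ± 0.12, adjusted p = 0.0215) was lost without resistant replicate 2, control replicate 2 or control replicate 3 (adjusted p = 0.0538 to 0.0694). SLC25A38, which imports glycine for haem synthesis, was at 27.9 ± 1.55 TPM in resistant and 33.3 ± 2.91 TPM in control cells (log2 fold change -0.24 ± 0.07, adjusted p = 0.0295), a call lost without resistant replicate 2, control replicate 1 or control replicate 3 (adjusted p = 0.0768 to 0.1). SLC25A44, a carrier of branched-chain amino acids, was at 20.3 ± 1.06 TPM in resistant and 22.2 ± 1.014 TPM in control cells and did not pass (adjusted p = 0.139).

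Cofactor and metal carriers gave 3 rises and 1 fall among 8 tested members (median log2 fold change 0.19). That is 37.5% and 12.5%, against 24% and 24.7% of all genes tested. SLC25A16, a carrier linked to coenzyme A, had 9.91, 8.32 and 8.14 TPM in resistant libraries, against 12.6, 15.03 and 12.8 TPM in control libraries (log2 fold change -0.56 ± 0.10, adjusted p = 0.00267). SLC25A42, the other coenzyme A carrier, was at 5.69 ± 0.343 TPM in resistant and 4.81 ± 0.408 TPM in control cells and did not pass (adjusted p = 0.106). The rises were small and those described here were each lost in several fits that left out 1 library. SLC25A37 (mitoferrin-1), which imports iron, had 23.3, 22.4 and 21.0 TPM in resistant libraries, against 18.4, 18.9 and 20.1 TPM in control libraries (log2 fold change 0.20 ± 0.06, adjusted p = 0.0270). That call was lost without resistant replicate 1, resistant replicate 2, control replicate 1 or control replicate 2 (adjusted p = 0.0685 to 0.0756).

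SLC25A51, which brings NAD into mitochondria, had 5.31, 5.25 and 4.50 TPM in resistant libraries, against 3.74, 4.04 and 4.15 TPM in control libraries (log2 fold change 0.27 ± 0.10, adjusted p = 0.0497). The call was lost in 5 of 6 fits that each left out a library, at adjusted p = 0.0908 to 0.144, and held without resistant replicate 3. Other annotated genes, chiefly its near copy SLC25A52, share 9.75% of its stretches of 75 bases. SLC25A52 reached at most 0.217 TPM, and both values are uncertain. SLC25A28 (mitoferrin-2) at 38.6 ± 3.82 TPM in resistant and 33.7 ± 0.570 TPM in control cells, SLC25A26, the S-adenosylmethionine carrier, at 7.19 ± 0.795 and 8.40 ± 0.221 TPM in resistant and control cells, and the peroxisomal carrier SLC25A17 at 23.1 ± 1.24 and 22.1 ± 1.25 TPM in resistant and control cells did not pass (adjusted p = 0.0639, 0.0968 and 0.484).

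SLC25A32, which carries folate, was listed at 0.116, 0.0603 and 0.141 TPM in resistant libraries, against 0.241, 0.226 and 0.365 TPM in control libraries, from an estimated 2 to 14 reads, and was not tested. In GENCODE 29 another gene on the same strand or DCAF13 on the opposite strand covers 80.8% of its exon bases. Reads from such bases may not have been counted for it, so its low level is uncertain.

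Of 5 tested members with roles outside metabolite transport or with little known transport, 1 fell and 0 rose (median log2 fold change -0.27). That is 20% and 0%, against 24.7% called lower and 24% called higher among all genes tested. SLC25A43 (ENSG00000077713, chromosome X, 119399060 to 119454478) had 38.9, 40.4 and 39.98 TPM in resistant libraries, against 60.4, 64.3 and 62.6 TPM in control libraries (log2 fold change -0.64 ± 0.04, adjusted p = 3.33e-05). The groups stood well apart. SLC25A46, an outer membrane protein of mitochondrial fusion and fission, was at 10.1 ± 0.904 TPM in resistant and 12.3 ± 1.49 TPM in control cells (adjusted p = 0.0627). It missed the threshold, and passed with the same 3 settings as SLC25A12 and without control replicate 1 (limma adjusted p = 0.0263 to 0.0491). SLC25A35 and SLC25A45 had log2 fold changes of 0.23 and 0.20 and SLC25A53 of -0.36, and none of these passed (adjusted p = 0.0623, 0.1 and 0.0864). RANGRF, on the opposite strand, covers 33.2% of the exon bases of SLC25A35. The other rows that were not tested, SLC25A2, SLC25A34, SLC25A47 and SLC25A48, stayed under 0.55 TPM in every library, with SLC25A47 listed at 0 in all 6.

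Many of the falls lay in regions where nearby genes were lower as well. For each carrier the median log2 fold change was taken over tested protein-coding genes that start within 5000000 bases. That distance and the limit of 0.3 below were chosen after the values were seen. In 10 of 39 tested carriers the neighbours' median was below -0.3, and 9 of those 10 were called lower and 0 higher. A median below -0.3 already means that many genes there were lower. The share called lower among all genes in such neighbourhoods was not calculated, so these counts show nothing particular to carriers. In the 27 carriers whose neighbours' median lay within 0.3 of 0, 5 were called lower and 8 higher. Over all genes tested, wherever they lie, 24.7% were called lower and 24% higher. Of the 2 carriers with a neighbours' median above 0.3, SLC25A39 was called higher, and SLC25A4 was not called (log2 fold change -0.07 where the median of 23 neighbours was 0.32). SLC25A40 (log2 fold change -1.05) lay among 26 neighbours with a median of -0.69, and 15.4% of these neighbours were lower than it. SLC25A13, on the same arm of chromosome 7, had -0.30 where the median of 84 neighbours was -0.57. SLC25A30 and SLC25A15 on chromosome 13 had -0.72 and -0.41 where the neighbours' medians were -0.50 and -0.49.

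On the X chromosome 4 of 5 tested carriers fell, where 47.4% of all 496 tested X genes were called lower. SLC25A5, SLC25A43 and SLC25A14 lay among neighbours with medians of -0.44, -0.44 and -0.45; SLC25A5 and SLC25A43 share a neighbourhood. SLC25A6, at the tip of the X in the pseudoautosomal region, fell by 0.46 on the log2 scale (-0.46) where the median of 14 neighbours was 0.09. On chromosome 17 4 of 5 tested carriers rose, where 35.8% of all 1002 tested genes of that chromosome were called higher, and SLC25A39 had 157 neighbours with a median of 0.34. SLC25A22 rose by 0.49 where the median of 70 neighbours was -0.14. When log2 values were centred in each library on the median of the carrier's own chromosome, an alternative chosen after seeing the data, 9 of 39 tested carriers were called higher and 10 lower. Of all 16077 genes tested, 4377 were then called higher and 3561 lower. The carriers called were not the same throughout as without centring. With that centring SLC25A6 (log2 fold change -0.10), SLC25A30 (-0.17), SLC25A1 (0.00) and SLC25A38 (-0.26, adjusted p = 0.0514) were among those no longer called, and SLC25A13 (0.04) and SLC25A15 (0.14) had the opposite sign and were not called. SLC25A28 and SLC25A33 were then called higher (limma adjusted p = 0.0289 and 0.0376), and SLC25A17 was called lower (-0.15). This centring takes the whole chromosome and does not follow the neighbourhood. SLC25A6 lost its call though its neighbours' median was 0.09. SLC25A24 and SLC25A16 stayed called lower (-0.62 and -0.48) where their neighbours' medians were -0.44 and -0.45. Whether gene dosage or anything else about these regions had a part was not tested.

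**Figure D4:**
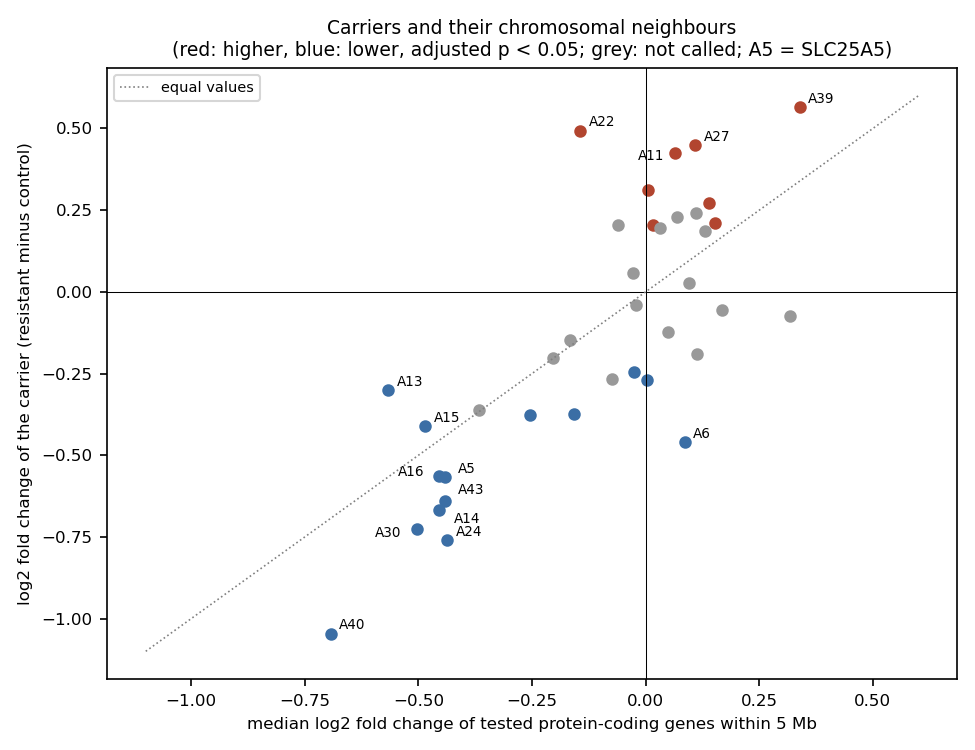
Log2 fold change of 38 of the 39 tested SLC25 carriers (vertical axis) against the median log2 fold change of tested protein-coding genes that start within 5 Mb of each (horizontal axis); red and blue mark carriers called higher and lower, grey those not called, and the dotted line marks equal values. SLC25A40, SLC25A24, SLC25A30, SLC25A14, SLC25A43, SLC25A5 and SLC25A16 lie at the lower left, while SLC25A6 is low with neighbours near 0 and SLC25A22 is high with neighbours at -0.14.

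Genes that work beside the carriers were read from lists chosen for this purpose. Of 43 tested partners 13 rose and 14 fell, 30.2% and 32.6%, against 24% and 24.7% of all genes tested. Family proteins with other names gave 1 rise and 2 falls among 4 (25% and 50%, against 24% and 24.7% of all genes tested). UCP2, an inner membrane carrier of the family known for uncoupling and for exporting carboxylates, had 127, 124 and 127 TPM in resistant libraries, against 49.1, 54.9 and 56.4 TPM in control libraries (log2 fold change 1.22 ± 0.06, adjusted p = 7.23e-06). MTCH1, an outer membrane relative, fell (259 ± 9.97 TPM in resistant and 318 ± 13.3 TPM in control cells). UCP2 thus rose by more on this scale than any of the carriers called higher here.

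The machinery that inserts carriers into the inner membrane gave 5 rises and 3 falls among 10. That is 50% and 30%, against 24% and 24.7% of all genes tested. The largest changes were TIMM8A, a chaperone of the intermembrane space (13.1 ± 1.39 TPM in resistant and 20.6 ± 0.107 TPM in control cells), AGK, a TIM22 complex subunit (12.8 ± 1.42 and 18.9 ± 2.13 TPM in resistant and control cells), the carrier chaperone TIMM10 (151 ± 15.1 and 109 ± 6.12 TPM in resistant and control cells) and TIMM10B (14.6 ± 0.392 and 19.8 ± 1.22 TPM in resistant and control cells), so that TIMM10 rose and the other 3 fell. Outer membrane channels and other inner membrane transporters gave 3 rises and 7 falls among 17 (17.6% and 41.2%, against 24% and 24.7% of all genes tested). MICU2, which gates the calcium uniporter, fell to 8.73 ± 0.918 TPM in resistant cells, against 18.2 ± 1.42 TPM in control cells. MICU2 lies on chromosome 13, where the median log2 fold change of tested protein-coding genes was -0.52. That median was -0.32 on the X chromosome of TIMM8A, -0.33 on chromosome 7 of AGK and 0.01 on chromosome 11 of TIMM10B. Whether position had a part in these falls was not tested. SFXN3, a serine transporter, rose (54.9 ± 2.13 TPM in resistant and 36.4 ± 1.96 TPM in control cells).

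Enzymes on either side of the carriers also went both ways. ACLY, which splits the citrate that SLC25A1 exports, had 249, 259 and 244 TPM in resistant libraries, against 152, 158 and 161 TPM in control libraries (log2 fold change 0.67 ± 0.04, adjusted p = 2.51e-05). GLUD1, which uses matrix glutamate, rose as well, to 57.1 ± 1.74 TPM in resistant cells, against 49.2 ± 2.63 TPM in control cells. Of 5 genes of citrate export and glutamine entry 3 rose and 0 fell (60% and 0%, against 24% and 24.7% of all genes tested). Of the 4 shuttle enzymes around SLC25A11 to SLC25A13, GOT1 rose (97.4 ± 5.64 TPM in resistant and 66.3 ± 3.07 TPM in control cells), MDH2, on chromosome 7, fell (285 ± 10.1 TPM in resistant and 381 ± 11.9 TPM in control cells), and 2 did not pass. That is 25% called higher and 25% called lower, near the 24% and 24.7% of all genes tested. Of 3 tested carnitine shuttle enzymes, CPT2, which works on the matrix side of SLC25A20, fell (13.9 ± 0.864 TPM in resistant and 28.6 ± 1.23 TPM in control cells, log2 fold change -0.997 ± 0.06, adjusted p = 2.71e-05) and the other 2 did not pass. In this short list 0% were called higher and 33.3% lower, against 24% and 24.7% of all genes tested.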

How the data were processed

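The authors deposited 1 table of TPM with a column per library. Each column sums to 1000000. Per the submitters' processing notes, HISAT2 was used. Which release, which read counter, genome build and annotation, whether counting used strand, and which filters is not given in the sources used here. Libraries were made with a stranded poly(A) kit, per the labels' protocols. All 51537 identifiers occur in GENCODE 29 (GRCh38), whose coordinates are 1-based here.

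The filter kept a gene when 3 or more libraries had 1 TPM or more. Log2(TPM + 1), a scale that understates changes of low genes, was fitted on the group with limma 3.58.1 in R 4.3.3 (mean-variance trend, robust estimation with statmod 1.5.0, two-sided tests, Benjamini-Hochberg adjustment over 16077 genes, threshold 0.05). In a test of the fit on simulated data the share of false calls exceeded the threshold of 0.05 and smaller changes were often missed. That simulation changed a far smaller share of genes than was called here and gave every gene the same spread setting. Its rates therefore do not carry over to these data. Calls near the threshold are treated here as less firm. Reads were estimated as TPM times union exon length over the smallest step of a library; 67.2% to 67.9% of values above 0 came out whole within 0.01 read, so these are estimates. Shares were tested with an exact permutation test in scipy 1.17.1. The lists' calls are adjusted over all genes tested. Coding sequences were aligned with Biopython 1.88.

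The carriers and lists were chosen with earlier results of these data known. Every carrier may be named. The rule for values per library took up to 10 called carriers with the largest change in each direction (minimum mean 5 TPM in whichever group was higher) and the 10 most abundant. Such values are also given for some carriers outside that rule, among them SLC25A13, SLC25A20, SLC25A29 and SLC25A32. Partner lists name up to 4 called genes by size of change. 3 of 96 list members were found by identifier under an older symbol and 1 was not used here. The values of 1 carrier and of some partner genes are not reported here. Alternatives were a pseudocount of 0.1, no filter, a filter at 5 TPM, median-ratio scaling, rescaling without mitochondrially encoded genes, the replicate block, no trend or robust estimation, and each library left out.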

Additional observations from a re-analysis of the deposited data

How the results depend on the processing

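Leaving out each library in turn gave 6 to 9 carriers called higher and 11 to 15 called lower, and the other planned settings without a block gave 6 to 10 and 11 to 16. Counts over all genes moved too. With a library left out, 3001 to 3624 of 15378 to 15670 genes tested were called higher and 3001 to 3923 lower. The other planned settings without a block called 3017 to 4055 of 11232 to 30799 genes higher and 3548 to 4328 lower. The labels give both groups the same replicate numbers, but same-numbered libraries did not deviate together (r = -0.0583, -0.0017 and -0.0163). Deviations within so small a group are tied to each other, so these values cannot show whether same-numbered libraries were prepared together. With a replicate block 5 carriers were called higher and 13 lower. Of all 16077 genes tested, the block gave 3433 higher and 3423 lower, against 3852 and 3963 in the main fit. SLC25A27, SLC25A37 and SLC25A51 were among the lost rises, and SLC25A36 was the lost fall. Partner genes called stayed at 12 to 16 higher and 12 to 14 lower. Rescaled without mitochondrially encoded genes, the summed TPM of the family was 4410 in resistant and 5472 in control cells, both higher because fewer genes share the total. With no filter on low values the calls of SLC25A15, SLC25A36, SLC25A37, SLC25A38 and SLC25A51 were among those lost. SLC25A26, SLC25A28, SLC25A35 and SLC25A53, not called, passed in 1 or 2 planned settings each (limma adjusted p = 0.0162 to 0.0468). Over the fits that each left out a library, the log2 fold change of SLC25A20 ranged from -0.0404 to 0.0972, the share of SLC25A37 among mitoferrins differed by -0.548 to 1.57 points, and the share of SLC25A15 among ornithine carriers by -1.48 to 0.283 points (resistant minus control), with negative values for SLC25A20 at -0.0203 and -0.0404 without resistant replicate 1 and control replicate 1. Centred on the chromosome median, the called falls of SLC25A13 and SLC25A15 turned sign (0.0389 and 0.139, against -0.30 and -0.41 without centring), SLC25A17 was at -0.15 (limma adjusted p = 0.0415) and SLC25A44 at 0.0175. The cause was not tested. Depth limits carriers under 1 TPM, which rest on few estimated reads.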
